A study of Mus musculus with 15 samples.

Results

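The 10 fatty acid desaturases and elongases described here were followed in livers of C57BL/6 mice, a common inbred strain. They are the desaturases Scd1, Scd2, Fads1, Fads2 and Fads3 and the elongases Elovl1, Elovl2, Elovl3, Elovl5 and Elovl6, chosen by name from the 3 gene families, with no threshold on their values, though earlier results of these data were known. Other members of the families are given after them. They make up 10 of the 25731 genes quantified, and all 10 were among the 13967 genes with enough reads to be tested. Mice were on a ketogenic diet (KD) or a high-fat diet (HFD) for 3 days at 12 weeks of age, or on chow (CD), with 5 libraries of total liver RNA per diet. The ketogenic diet is very low in carbohydrate. The sources used here give neither the age of the chow mice nor the sex of any group, the hour of sampling or the make-up of the diets. Each library carries its own number (KD 2, 3, 4, 6 and 8; HFD 9, 10, 11, 12 and 14; CD 15 to 19) and was taken as 1 mouse. No label states that each came from a separate animal, so the p-values measure the spread between libraries. The series asks how a low-carbohydrate diet bears on hepatic insulin resistance and fatty liver.

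Apart from Fads3, the members act on fatty acids bound to coenzyme A in the endoplasmic reticulum. Stearoyl-CoA desaturases place the first double bond into saturated chains and so make oleate and palmitoleate, and Scd1 is the main such enzyme of the adult mouse liver. Fads2 and Fads1 act in turn on the essential polyunsaturated fatty acids of the diet, with an elongation step by Elovl5 between them and further elongation by Elovl2 on the way to docosahexaenoic acid. Elovl6 lengthens palmitate to stearate, the substrate of Scd1, while Elovl1 and Elovl3 act mainly on saturated and monounsaturated long chains. Scd1 and Elovl6 are known targets of the insulin-responsive factor SREBP-1c and of ChREBP, and polyunsaturated fatty acids are known to lower them.

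Summed estimated read counts ran between 34707597 and 50914494 in ketogenic libraries, between 30121672 and 44764257 in high-fat libraries and between 30190806 and 43688344 in chow libraries. Hepatocyte markers such as Alb were abundant in every library, with summed levels of 101120 to 107253 CPM (read counts scaled to library size) on the ketogenic diet, 85114 to 89412 CPM on the high-fat diet and 81059 to 99759 CPM on chow. Of these 8 markers 2 rose (Cyp2e1 and Apob) and 2 fell (Ttr and Serpina1c) in ketogenic against chow livers. High-fat against chow 2 rose and 2 fell, with Alb among those that fell (log2 fold change -0.26). Ketogenic against high-fat 3 rose and 2 fell. Adiponectin (Adipoq), a fat cell marker, had 0 to 6 reads in all ketogenic and high-fat libraries, but 15, 61 and 19 reads in CD 16, CD 17 and CD 18, against 0 in CD 15 and 2 in CD 19. The 6 fat cell markers summed to 8.44 to 12.6 CPM on the ketogenic diet, 4.90 to 10.0 CPM on the high-fat diet and 4.17 to 18.8 CPM on chow. Markers of blood cells moved with the ketogenic diet: all 6 erythroid markers fell relative to chow, with sums of 358 to 554 CPM on the ketogenic diet and 731 to 1077 CPM on chow. Of 8 lymphocyte markers 4 fell in that comparison, with sums of 3.70 to 5.08 CPM on the ketogenic diet and 5.38 to 16.1 CPM on chow. These 4 were the B cell genes Cd79a, Ms4a1, Ighm and Igkc. Cd79b, also a B cell gene (log2 fold change -0.46 for ketogenic against chow), and the T cell markers Cd3e, Cd3g and Trac passed in no comparison. Apart from Ighm and Igkc, these markers had at most 31 reads in a library. Ighm also fell in high-fat against chow livers (log2 fold change -1.365). Of 8 Kupffer cell markers none passed against chow on either diet, and 2 rose in ketogenic against high-fat livers (Cd5l and Vsig4, log2 fold changes 0.68 and 0.37), with sums of 115 to 182 CPM on the ketogenic diet, 84.2 to 162 CPM on the high-fat diet and 112 to 139.9 CPM on chow. Of 8 stellate cell markers 2 (Hgf and Dcn) rose in ketogenic livers against chow (0.90 and 0.26) and against high-fat livers (0.80 and 0.39), and of 8 endothelial markers 1 (Oit3) rose in ketogenic against chow livers (0.49). Ketogenic against high-fat, 2 erythroid and 2 lymphocyte markers and 1 of 6 bile duct markers fell. Of all tested genes, 30.8% were called for ketogenic against chow, 15.6% for high-fat against chow and 26.1% for ketogenic against high-fat. The part of these cells in the results below was not tested.

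In the ketogenic livers Scd1 was lower than in any liver of the other diets, while Fads2, Fads1 and Elovl2 were higher than in chow livers. In the high-fat livers Scd1 also fell relative to chow, by much less, and Fads2 rose. Levels are given as CPM after normalisation by the trimmed mean of M-values (TMM), in the order of the library numbers. Differences are log2 fold changes with their standard errors from edgeR's quasi-likelihood test, with p adjusted by Benjamini-Hochberg over all 13967 genes and a threshold of 0.05. Both fat-rich diets were compared with the same chow libraries, so the 2 comparisons share their error on the chow side. In RNA from whole liver, fewer cells of a type and less RNA per cell cannot be told apart.

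**Figure D1:**
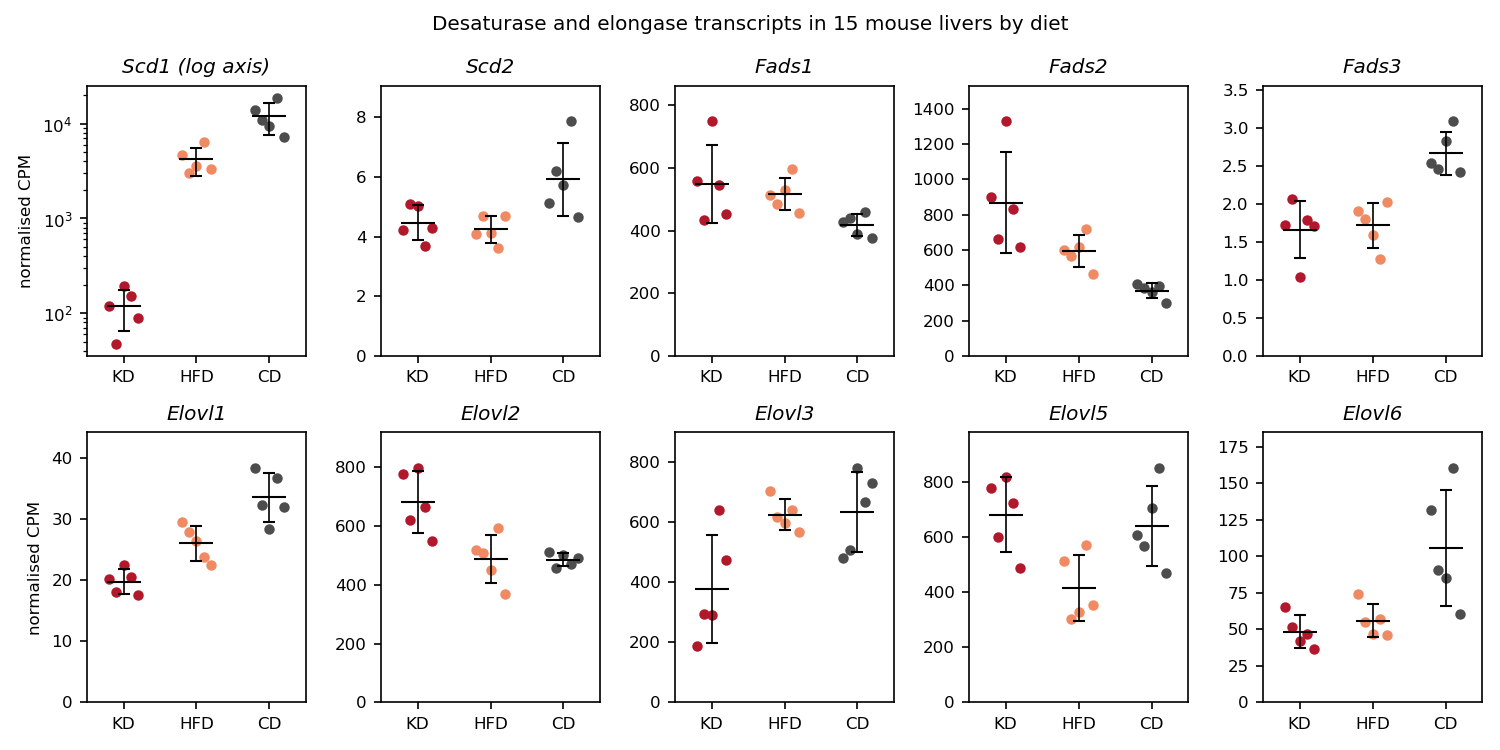
TMM-normalised CPM (y axis, logarithmic for Scd1 and linear from 0 for the rest) of the 10 members in each library by diet (x axis). Points are libraries, the horizontal bar is the mean and the error bar 1 SD (n = 5). Scd1 lies between 47.8 and 193 CPM in KD livers, below every HFD and CD library, while Fads2 lies between 615 and 1329 CPM in KD livers, above every CD library.

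Scd1 (chr19:44394455-44407879, minus strand, GRCm38) showed the largest fold changes among the members in all 3 comparisons. Its level was 119.6, 47.8, 193, 153 and 90.02 CPM in the ketogenic livers. The high-fat livers had 4665, 3040.2, 3612, 6448 and 3318 CPM. The chow livers had 13811, 11054, 9359, 18552 and 7157 CPM. No library of one diet overlapped with those of another, and the order was the ketogenic diet lowest, the high-fat diet between and chow highest. Scd1 was 99.4-fold lower in ketogenic than in chow livers (log2 fold change -6.64 ± 0.46, adjusted p = 3.42e-07) and 35.0-fold lower than in high-fat livers (-5.13 ± 0.43, adjusted p = 4.03e-06). High-fat against chow the fall was 2.84-fold (-1.51 ± 0.37, adjusted p = 0.0153). Even the lowest ketogenic library, KD 3, held 1871 Scd1 reads, so the gene was well counted throughout. Scd1 was 13811 and 7157 CPM in CD 15 and CD 19, the chow livers with at most 2 Adipoq reads. It was 11054, 9359 and 18552 CPM in CD 16, CD 17 and CD 18, which held 15, 61 and 19 Adipoq reads. Whether fat cells added to the Scd1 level was not tested. Without CD 16, CD 17 and CD 18 the log2 fold change was -6.44 for the ketogenic diet (adjusted p = 3.31e-05) and -1.32 for the high-fat diet, where the adjusted p of 0.115 missed the threshold with 2 chow libraries left.

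Scd2 (chr19:44293674-44306864, plus strand), the stearoyl-CoA desaturase that predominates in mouse brain and in early life, was near the bottom of the range. It averaged 4.46 ± 0.59 CPM in ketogenic livers, 4.24 ± 0.45 CPM in high-fat livers and 5.91 ± 1.23 CPM in chow livers (SD, n = 5). All 3 diets overlapped. Its log2 fold change was -0.41 ± 0.13 for ketogenic against chow (adjusted p = 0.0221) and -0.48 ± 0.13 for high-fat against chow (adjusted p = 0.0193). Between the ketogenic and high-fat diets it was 0.07 ± 0.13 (adjusted p = 0.740). The calls were not stable: ketogenic against chow the adjusted p was 0.093 with total-count scaling in place of TMM, 0.0786 without CD 18 and 0.0584 without KD 6, and high-fat against chow it was 0.0566 without CD 18 and 0.055 without HFD 12. Without CD 16, CD 17 and CD 18 it was 0.551 and 0.396 in those comparisons.

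Scd1 and Scd2 are close copies, and a stretch of both coding sequences is printed to show how far a short read could tell them apart. Their coding sequences, 1065 and 1074 bases long, were identical at 962 of the 1065 aligned bases (90.3%), with a longest identical run of 147 bases that starts at coding base 523 of Scd1. The stretch begins inside that run and covers coding bases 610 to 729 of Scd1 and 619 to 738 of Scd2, 5′ to 3′, with the 2 bases that differ in capitals (GENCODE M21 transcripts Scd1-201 and Scd2-201).
Scd1: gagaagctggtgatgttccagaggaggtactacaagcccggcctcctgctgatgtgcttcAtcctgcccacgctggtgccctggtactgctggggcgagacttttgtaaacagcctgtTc
Scd2: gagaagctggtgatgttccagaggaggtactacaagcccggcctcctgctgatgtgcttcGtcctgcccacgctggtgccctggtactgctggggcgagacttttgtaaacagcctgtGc
Over the whole main transcripts, 404 of 4802 windows of 31 bases in Scd1 (8.41%) and 372 of 5425 in Scd2 (6.86%) also occurred in transcripts of other genes, chiefly in Scd3, Scd4 and each other. Reads from these stretches could be assigned to either gene, which bears on Scd2 more, since Scd1 had up to 629738 reads in a library and Scd2 at most 268. Fads2 and Fads3 shared 24 windows with each other. Elovl6 shared 454 of 5921 (7.67%), chiefly with Gm11295 (355 windows), Trim12c (52) and Flt1 (51), and 13 with Scd3. Fads1, Elovl1, Elovl2, Elovl3 and Elovl5 shared none.

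Fads2 (chr19:10062765-10101746, minus strand), the front-end desaturase that opens polyunsaturated fatty acid synthesis, moved the other way from Scd1. It had 903, 660.4, 1329, 835 and 615 CPM in ketogenic livers. High-fat livers had 601, 564, 619, 717 and 465 CPM, and chow livers 406, 383, 362, 398 and 297 CPM. Every ketogenic and every high-fat liver lay above every chow liver, while the ketogenic and high-fat ranges overlapped. Fads2 was 2.35-fold higher in ketogenic than in chow livers (log2 fold change 1.23 ± 0.18, adjusted p = 0.000125) and 1.61-fold higher in high-fat than in chow livers (0.68 ± 0.18, adjusted p = 0.0196). The high-fat call was lost without HFD 12 (adjusted p = 0.0535) and without CD 16, CD 17 and CD 18 (adjusted p = 0.117). Ketogenic against high-fat, Fads2 was 1.46-fold higher (0.55 ± 0.18, adjusted p = 0.0359), a difference that missed the threshold without any one of KD 2, KD 4, KD 6, HFD 9, HFD 10, HFD 11 or HFD 14 (adjusted p 0.0517 to 0.0883), in a fit to those 2 diets alone (0.0696), with no filter on low counts (0.0602) and without CD 16, CD 17 and CD 18 (0.0703).

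Fads1 (chr19:10182888-10196877, plus strand), which introduces the next double bond after elongation and yields arachidonic and eicosapentaenoic acids, changed less. Its level was 559, 435, 749, 545 and 451 CPM in ketogenic livers, 512, 486, 529.7, 595 and 457 CPM in high-fat livers, and 426, 439.7, 389, 458 and 376 CPM in chow livers. The diets overlapped. Fads1 was 1.31-fold higher in ketogenic than in chow livers (log2 fold change 0.39 ± 0.12, adjusted p = 0.0189), but the adjusted p was 0.0551 without KD 4, 0.0501 without CD 19 and 0.0828 without the 3 chow livers with Adipoq reads. High-fat against chow the difference was 0.30 ± 0.12 (adjusted p = 0.0924), which passed in a fit to those diets alone (0.03) and without KD 4 (0.0285). Ketogenic against high-fat it was 0.09 ± 0.12 (adjusted p = 0.633).

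Since Fads2 moved further than Fads1, the ratio of their levels per kilobase separated all 3 diets. Fads2 over Fads1 was 1.64 ± 0.16 in ketogenic livers, 1.20 ± 0.08 in high-fat livers and 0.929 ± 0.067 in chow livers (SD, n = 5), and no library of one diet overlapped with another's. The ratio is given as a description, without a test.

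Fads3 (chr19:10041569-10060110, plus strand), which acts on sphingoid bases rather than on this pathway, had the lowest CPM of the 10 members, with 38 to 107 reads per library. It averaged 1.66 ± 0.38 CPM in ketogenic, 1.72 ± 0.29 CPM in high-fat and 2.67 ± 0.29 CPM in chow livers (SD, n = 5). Each chow liver lay above every liver of the other diets. The log2 fold change was -0.68 ± 0.16 for ketogenic against chow (adjusted p = 0.00398) and -0.63 ± 0.17 for high-fat against chow (adjusted p = 0.0150), and -0.04 ± 0.17 between the ketogenic and high-fat diets (adjusted p = 0.873). With CD 15 and CD 19 as the only chow livers the adjusted p was 0.0901 and 0.164 against chow. Fads3, Fads2 and Fads1 lie side by side, with 2654 bases between Fads3 and Fads2 and 81141 between Fads2 and Fads1, so neighbours on the chromosome moved in opposite directions. Of the 10 members 6 are on chromosome 19, in this cluster, in the Scd cluster and at Elovl3.

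Among the elongases, Elovl6 (chr3:129532355-129638495, plus strand) fell on both diets relative to chow. Its level was 65.4, 51.8, 42.1, 47.0 and 36.6 CPM in ketogenic livers, 74.4, 55.4, 46.8, 57.3 and 46.4 CPM in high-fat livers, and 131.5, 90.8, 85.3, 160.8 and 60.3 CPM in chow livers. CD 19, the lowest chow liver, lay within the range of both other diets. Elovl6 was 2.18-fold lower in ketogenic than in chow livers (log2 fold change -1.12 ± 0.25, adjusted p = 0.00409) and 1.89-fold lower in high-fat than in chow livers (-0.92 ± 0.25, adjusted p = 0.0262). The high-fat call was fragile: it was lost without any one of HFD 10, HFD 11, HFD 12, HFD 14, CD 15 or CD 18 (adjusted p 0.0524 to 0.0653), in a fit to those diets alone (0.0535) and without the 3 chow livers with Adipoq reads (0.137). Ketogenic against high-fat the difference was -0.21 ± 0.25 (adjusted p = 0.581).

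Scd1 and Elovl6, both known SREBP-1c targets, are set against each other per library. In chow livers their ratio per kilobase stayed between 126 and 146, although Scd1 itself ran between 7157 and 18552 CPM, and the 5 livers ranked the same for both genes. It was 1.10 to 5.49 in ketogenic livers and 65.7 to 134.7 in high-fat livers. The high-fat range overlaps with chow and the ketogenic range does not.

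**Figure D2:**
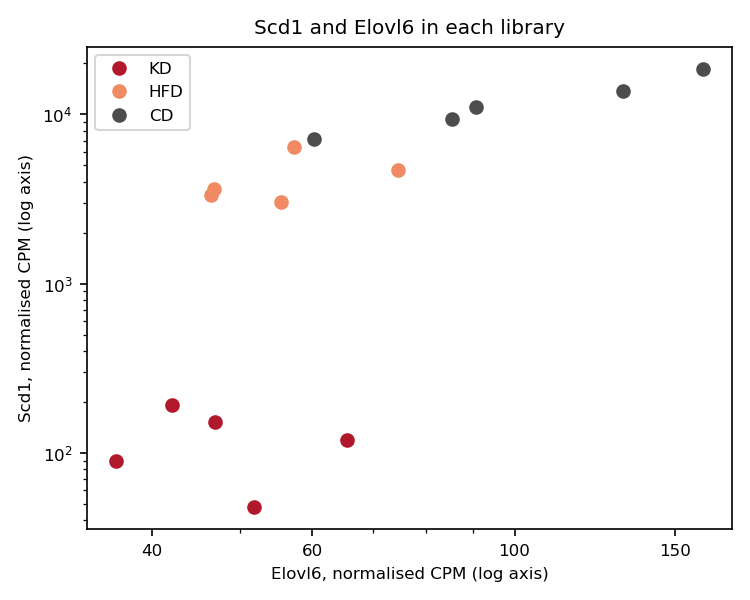
TMM-normalised CPM of Elovl6 (x axis, logarithmic) and Scd1 (y axis, logarithmic) in each of the 15 libraries, coloured by diet. KD livers (Elovl6 at 36.6 to 65.4 CPM) share most of their Elovl6 range with HFD livers (46.4 to 74.4 CPM) but lie far below them in Scd1, and the 5 CD livers rank the same for both genes.

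Elovl5 (chr9:77917364-77984519, plus strand), the elongase between the steps of Fads2 and Fads1, differed between the fat-rich diets. Ketogenic livers had 778, 601, 821, 725 and 487 CPM, high-fat livers 515, 303, 329, 571 and 355 CPM, and chow livers 610.5, 569, 708, 854 and 471 CPM. HFD 9 and HFD 12 reached the lower ketogenic and chow values, and HFD 10, HFD 11 and HFD 14 lay below all of them. Elovl5 was 1.65-fold higher in ketogenic than in high-fat livers (log2 fold change 0.72 ± 0.21, adjusted p = 0.0211), though the adjusted p was 0.0535 without KD 4, 0.0538 without HFD 11 and 0.0541 without HFD 14. Ketogenic against chow it was 0.09 ± 0.21 (adjusted p = 0.791). High-fat against chow it was -0.63 ± 0.21 and missed the threshold (adjusted p = 0.0545); DESeq2 gave 0.0236, a filter of 1 CPM in 5 libraries gave 0.0412, and leaving out KD 8, HFD 9, HFD 12 or CD 19 gave 0.0459, 0.0367, 0.0273 and 0.0378.

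Elovl2 (chr13:41182381-41220405, minus strand), which makes the longest polyunsaturated precursors of docosahexaenoic acid, rose on the ketogenic diet. Its level was 776, 621, 797, 665 and 548 CPM in ketogenic livers, 518, 508, 451, 591 and 369 CPM in high-fat livers, and 509, 456, 499, 468 and 489.8 CPM in chow livers. The ketogenic livers all lay above the chow livers, which varied little. Elovl2 was 1.41-fold higher in ketogenic than in chow livers (log2 fold change 0.49 ± 0.11, adjusted p = 0.00257) and 1.40-fold higher than in high-fat livers (0.48 ± 0.11, adjusted p = 0.00425). High-fat against chow the difference was 0.01 ± 0.11 (adjusted p = 0.972). The call against chow became an adjusted p of 0.0713 without the 3 chow livers with Adipoq reads.

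Elovl1 (chr4:118428093-118432953, plus strand), which serves very long saturated chains for sphingolipids, had the smallest standard errors of the 10 members. It averaged 19.8 ± 2.00 CPM in ketogenic livers, 26.0 ± 2.88 CPM in high-fat livers and 33.5 ± 4.02 CPM in chow livers (SD, n = 5). The ketogenic libraries lay below all others, at 17.5 to 22.5 CPM. It fell on the ketogenic diet against chow (log2 fold change -0.76 ± 0.09, adjusted p = 5.69e-06) and against the high-fat diet (-0.40 ± 0.09, adjusted p = 0.00405), and on the high-fat diet against chow (-0.37 ± 0.09, adjusted p = 0.0112). These 3 calls held in every alternative run, the fit without CD 16, CD 17 and CD 18 included. Cdc20 overlaps its end on the opposite strand, with at most 10 reads in a library.

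Elovl3 (chr19:46131897-46135694, plus strand), known in mouse liver for its daily rhythm and its control by sex steroids, varied widely within the ketogenic diet. Ketogenic livers had 187, 293, 291, 638 and 475 CPM, high-fat livers 704, 615, 596, 640.0 and 567 CPM, and chow livers 479.7, 508, 780.4, 668 and 731 CPM. KD 2, KD 3 and KD 4 lay below every other library, while KD 6 reached the high-fat and chow ranges and KD 8 lay just under the lowest chow liver. KD 6 and KD 8 were also the ketogenic libraries nearest to the other diets along the leading axis of a principal component analysis (1000 genes), at -17.7 and -22.3, against -28.4 to -26.8 for KD 2, KD 3 and KD 4 and 4.08 to 22.1 for the other diets. The log2 fold change of Elovl3 was -0.75 ± 0.27 for ketogenic against chow (adjusted p = 0.0509) and -0.73 ± 0.27 for ketogenic against high-fat (adjusted p = 0.0639), both short of the threshold. Without KD 6 these were 0.00404 and 0.00636, and DESeq2 gave 0.0282 and 0.0419. Ketogenic against chow it also passed with a filter of 1 CPM in 5 libraries (0.0398), without KD 8 (0.049) and without CD 15 (0.0472). High-fat against chow the difference was -0.02 ± 0.27 (adjusted p = 0.971).

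**Figure D3:**
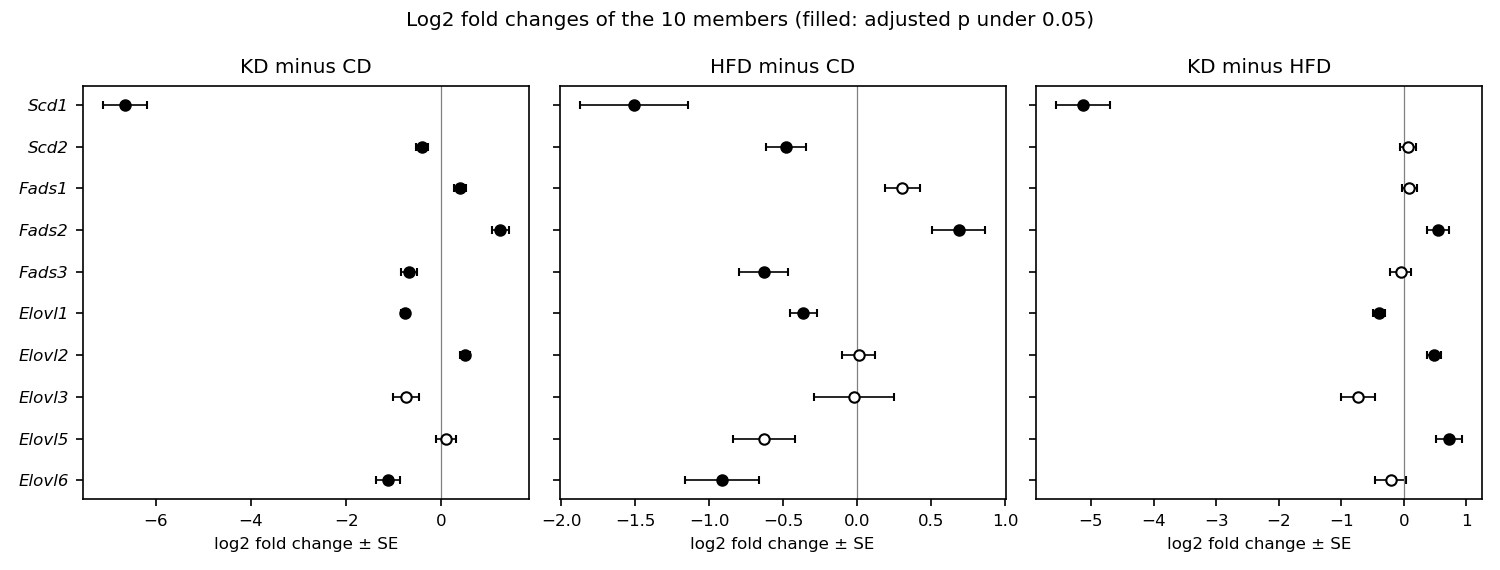
Log2 fold changes (x axis, with a separate scale in each panel) of the 10 members (y axis) for KD minus CD, HFD minus CD and KD minus HFD, with error bars of 1 standard error from edgeR. Filled points had an adjusted p under 0.05. Scd1 stands at -6.64, -1.51 and -5.13, while the others lie within 1.3 of 0 in every panel.

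Counted together, 3 of the 10 members rose and 5 fell in ketogenic against chow livers, where 30.8% of all tested genes were called. By direction, 16.2% of all genes were called higher and 14.6% lower. High-fat against chow, 1 rose and 5 fell, where 15.6% of all genes were called, 8.3% higher and 7.32% lower. Ketogenic against high-fat, 3 rose and 2 fell, where 26.1% were called, 13.1% higher and 13% lower. With the 3 chow livers that held Adipoq reads left out, the members called were 1 higher and 3 lower for ketogenic against chow, and 0 higher and 1 lower (Elovl1) for high-fat against chow. Of the 14481 genes tested in that fit, 1642 were called higher and 1386 lower for ketogenic against chow. For high-fat against chow 657 were called higher and 612 lower. The median log2 fold change of the members was -0.54 for ketogenic against chow, -0.42 for high-fat against chow and 0.01 for ketogenic against high-fat, beside -0.01, 0.01 and -0.02 over all tested genes. The libraries of the compared diets did not overlap for 5 members in ketogenic against chow (Scd1, Fads2, Fads3, Elovl1 and Elovl2), as for 22.3% of all genes. They did not overlap for 3 members in high-fat against chow (Scd1, Fads2 and Fads3), as for 10.3% of all genes, nor for 2 in ketogenic against high-fat (Scd1 and Elovl1), as for 17% of all genes.

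Levels of different genes were compared as normalised CPM per kilobase of effective transcript length, averaged over the 15 libraries. These lengths can exceed the transcript: for Scd1 it was 5.288 kb, while Scd1-201 has 4832 bases. Transcripts with such lengths numbered 21731 to 25233 in ketogenic, 26030 to 41677 in high-fat and 30479 to 39541 in chow libraries. What this does to levels per kilobase and to transcript shares was not tested. Summed over the desaturases this came to 425.5 ± 125.5 in ketogenic livers, 1112 ± 298 in high-fat livers and 2490.4 ± 851 in chow livers (SD, n = 5). The ketogenic livers lay below all others, while the high-fat and chow ranges overlapped. Over the elongases the sum came to 614 ± 94.1 in ketogenic livers, 618 ± 80.3 in high-fat livers and 712 ± 93.8 in chow livers, with overlap between all diets. Scd1 made up 5.19 ± 1.49% of the desaturase sum in ketogenic livers, 70.9 ± 4.36% in high-fat livers and 90.4 ± 2.27% in chow livers. Fads2 made up 58.6 ± 2.22% in ketogenic, 15.8 ± 2.34% in high-fat and 4.56 ± 0.997% in chow livers. Fads1 made up 35.9 ± 2.26% in ketogenic, 13.2 ± 2.09% in high-fat and 4.95 ± 1.28% in chow livers. None of these 3 shares overlapped between any pair of diets. The shares of a library add up to a fixed whole, so a lower Scd1 level by itself raises those of Fads2 and Fads1. These separations are therefore not independent of each other. The level of Fads1 itself overlapped between all diets and was 1.31-fold higher in ketogenic than in chow livers.

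**Figure D4:**
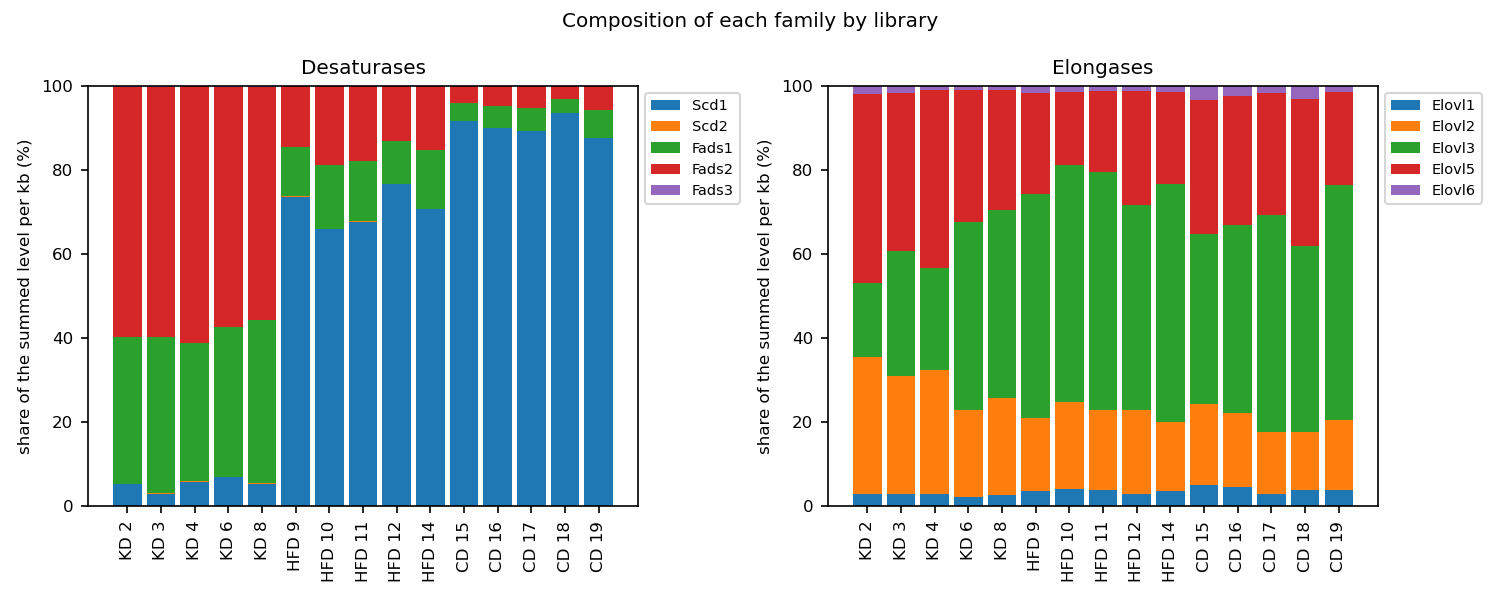
Share of each member (y axis, percent) in the summed normalised CPM per kilobase of the desaturases and of the elongases in each library (x axis, KD, HFD, then CD). Scd1 averages 5.19% of the desaturase sum in KD livers, 70.9% in HFD livers and 90.4% in CD livers, and Elovl3 averages 32.3%, 54.4% and 47.5% of the elongase sum.

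In ketogenic livers Fads2 led the order per kilobase, followed by Elovl5, Elovl3, Elovl2 and Fads1, with Scd1 in rank 6 ahead of Elovl1, Elovl6, Scd2 and Fads3. In high-fat livers the order was Scd1, Elovl3, Fads2, Fads1, Elovl5, Elovl2, Elovl1, Elovl6, Scd2 and Fads3. In chow livers it was Scd1, Elovl3, Elovl5, Elovl2, Fads1, Fads2, Elovl1, Elovl6, Fads3 and Scd2. The libraries of neighbours overlapped among the 5 leading genes of the ketogenic livers, among Fads2, Fads1, Elovl5 and Elovl2 of the high-fat livers, and among Elovl2, Fads1 and Fads2 of the chow livers, so those ranks are not separated. Scd1 and Elovl1 overlapped in ketogenic livers, Elovl3 and Elovl5 in chow livers, as did Elovl1 and Elovl6 there, and Scd2 and Fads3 on all 3 diets. Scd1 stood clear of the next gene in high-fat and chow livers.

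Fads2 and Elovl5 were read almost wholly from 1 transcript each. Fads2-201 held 99.4% of Fads2 TPM, kallisto's abundance per length, in ketogenic, 99.6% in high-fat and 99.4% in chow livers, and Elovl5-201 held 99.9% in ketogenic, 100% in high-fat and 99.9% in chow livers. Elovl1 used several, led by Elovl1-202 with 45.5% in ketogenic, 46.0% in high-fat and 46.2% in chow livers. Fads1 used a pair: Fads1-201 held 49.5 ± 4.08% of its TPM in ketogenic livers, 40.8 ± 5.49% in high-fat livers and 39.1 ± 2.45% in chow livers (SD, n = 5). The ketogenic libraries, at 44.5 to 55.1%, lay above the chow libraries, at 35.2 to 41.7%. Elovl2-202 held 16.9 ± 4.32% in ketogenic, 14.7 ± 5.81% in high-fat and 8.52 ± 6.51% in chow livers, with overlap. Elovl3-201 held 53.2 ± 1.97% in ketogenic, 55.1 ± 0.93% in high-fat and 55.6 ± 1.30% in chow livers. These shares are estimates from reads that transcripts share and were not tested.

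Within a diet, the same few libraries were highest or lowest for several members. KD 4 was the highest ketogenic liver for 6 members (Scd1, Fads1, Fads2, Elovl1, Elovl2 and Elovl5), and KD 8 the lowest for 5. HFD 12 was the highest high-fat liver for 5 members and HFD 14 the lowest for 6. CD 18 was the highest chow liver for 6 members, Scd1 and Elovl6 included, and CD 19 the lowest for 7.

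By likeness of pattern over the 15 libraries, measured as the root mean square difference of log2 CPM after centring each gene, the genes nearest to Fads2 were Steap4 (0.222), the phosphate transporter Slc20a1 (0.233) and Acad12 (0.237), where Fads2 itself varied by 0.557 around its mean. Close to Elovl6 were the glycerol phosphate acyltransferase Gpam (0.262) and the sterol desaturase Sc5d (0.280). Nearest to Scd1 were Adgrf1 (1.35), the urinary protein Mup2 (1.42), whose reads are shared with near-identical copies, and Pnpla3 (1.47). Scd1 itself varied by 2.93 around its mean. Adgrf1 averaged only 0.363 CPM in ketogenic livers, and Pnpla3 0.0927 CPM in ketogenic and 0.422 CPM in high-fat livers. Nearest to Elovl5 were Tigit (0.233), Zfp947 (0.242) and Gabbr2 (0.243), of which Tigit averaged under 1 CPM, at 0.344, 0.228 and 0.323 CPM on the ketogenic, high-fat and chow diets. Since many genes were searched, these names describe the libraries only.

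Close relatives of the members were barely detected or did not pass. Of 7 other desaturases and elongases, Scd3 had 1 to 15 reads per library, Elovl4 0 to 2 and Degs2 0 to 6, and these were not tested. Scd4, Fads6, Elovl7 and Degs1 did not pass in any comparison. Degs1, the ceramide desaturase, averaged 59.0 ± 1.79 CPM in ketogenic livers, 60.6 ± 2.53 CPM in high-fat livers and 63.9 ± 2.52 CPM in chow livers (SD, n = 5).

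The elongases work in a cycle with a reductase, dehydratases and a second reductase. Of 6 tested partners of this cycle, 2 rose and none fell in ketogenic against chow livers: Hsd17b12, the ketoacyl-CoA reductase (216.6 ± 11.9 CPM in ketogenic livers, 163 ± 17.5 CPM in chow livers, log2 fold change 0.41 ± 0.08, adjusted p = 0.000552), and Hacd3, a hydroxyacyl-CoA dehydratase (259 ± 21.5 CPM in ketogenic livers, 184 ± 10.9 CPM in chow livers, 0.49 ± 0.06, adjusted p = 9.88e-06). Ketogenic against high-fat 3 rose, Hsd17b12 (0.64 ± 0.08), Hacd3 (0.59 ± 0.06) and Hacd2 (0.18 ± 0.06). High-fat against chow 2 fell, the dehydratases Hacd1 (-0.42 ± 0.12) and Hacd2 (-0.24 ± 0.06). Tecr, the last enzyme of the cycle, did not pass in any comparison, and Tecrl had 0 or 1 reads. Of all tested genes, 30.8% were called for ketogenic against chow, 16.2% higher and 14.6% lower. For high-fat against chow 15.6% were called, and for ketogenic against high-fat 26.1%.

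The genes of electron supply to the desaturases moved in both directions. Of 6 tested, 2 rose and 3 fell in ketogenic against chow livers, where 30.8% of all tested genes were called. Cyb5a, the cytochrome b5 of the endoplasmic reticulum, averaged 988 ± 131 CPM in ketogenic livers and 732 ± 51.7 CPM in chow livers (0.43 ± 0.10, adjusted p = 0.00265), and Cyb5rl rose by less (0.26 ± 0.08, adjusted p = 0.0221). Cyb5r3, the main cytochrome b5 reductase, averaged 248 ± 31.4 CPM in ketogenic livers and 477 ± 79.2 CPM in chow livers (-0.94 ± 0.11, adjusted p = 4.56e-06). Cyb5b, the mitochondrial form (-0.75 ± 0.08), and Cyb5r1 (-0.74 ± 0.12) fell too. High-fat against chow, Cyb5b (-0.61 ± 0.08) and Cyb5r1 (-0.38 ± 0.12) fell and none rose. Ketogenic against high-fat, Cyb5a rose (0.54 ± 0.10) and Cyb5r3 (-0.87 ± 0.11, adjusted p = 1.85e-05) and Cyb5r1 (-0.36 ± 0.12) fell. Cyb5r2 had 0 to 2 reads.

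Cytosolic fatty acid synthesis supplies palmitate to Elovl6 and Scd1. Of 10 tested genes of this list, 7 fell in ketogenic against chow livers (Fasn, Acaca, Acacb, Acly, Acss2, Me1 and Slc25a1), where 14.6% of all tested genes were called lower. Oxsm, of mitochondrial fatty acid synthesis, rose. Mcat and Mecr, of that mitochondrial pathway too, passed in no comparison. High-fat against the same chow livers, the same 7 fell and Oxsm rose, where 7.32% of all tested genes were called lower. Me1, the malic enzyme, averaged 147 ± 13.0 CPM in ketogenic livers, 196 ± 35.0 CPM in high-fat livers and 664 ± 184 CPM in chow livers, with log2 fold changes of -2.18 ± 0.17 for ketogenic and -1.76 ± 0.17 for high-fat against chow. For Acly, ATP citrate lyase, they were -2.09 ± 0.24 for ketogenic and -1.36 ± 0.23 for high-fat against chow. For Fasn, fatty acid synthase, they were -1.72 ± 0.29 for ketogenic and -0.97 ± 0.29 for high-fat against chow. Ketogenic against high-fat only Acly of the 10 was called (-0.73 ± 0.23, adjusted p = 0.0329), while Scd1 differed by -5.13 in that comparison and Elovl6 by -0.21.

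Among 15 regulators, 4 rose and 7 fell in ketogenic against chow livers, 5 rose and 3 fell in high-fat against chow livers, and 5 rose and 5 fell in ketogenic against high-fat livers. Of all tested genes, 30.8%, 15.6% and 26.1% were called in these comparisons. Srebf1, which encodes SREBP-1, averaged 77.2 ± 14.6 CPM in ketogenic livers, 125.7 ± 21.5 CPM in high-fat livers and 157 ± 43.8 CPM in chow livers. Its log2 fold change was -1.02 ± 0.19 for ketogenic against chow (adjusted p = 0.000827) and -0.32 ± 0.18 for high-fat against chow (adjusted p = 0.259). Mlxipl, which encodes ChREBP, averaged 155 ± 19.0 CPM in ketogenic livers, 283 ± 50.1 CPM in high-fat livers and 362 ± 29.3 CPM in chow livers. It fell on the ketogenic diet (-1.22 ± 0.11, adjusted p = 2.22e-07) and on the high-fat diet (-0.36 ± 0.11, adjusted p = 0.033) against chow. Ppara, a receptor for fatty acids to which Fads2 responds in mice, averaged 142 ± 16.3 CPM in ketogenic livers, 82.7 ± 14.8 CPM in high-fat livers and 52.1 ± 6.996 CPM in chow livers. It rose on the ketogenic diet (1.45 ± 0.12, adjusted p = 1.7e-07) and on the high-fat diet (0.67 ± 0.12, adjusted p = 0.0015) against chow. Insig2, which retains SREBPs in the endoplasmic reticulum, rose on the ketogenic (1.18 ± 0.13) and high-fat (0.53 ± 0.13) diets against chow, and Insig1, with the same function, fell on the ketogenic (-0.95 ± 0.16) and high-fat (-0.57 ± 0.16) diets. Srebf2, which encodes the cholesterol-regulating SREBP-2, rose on the ketogenic (0.83 ± 0.10) and high-fat (0.33 ± 0.10) diets, as did Rxra, the partner of PPARs and LXRs (0.46 ± 0.07 for ketogenic and 0.21 ± 0.07 for high-fat). Mid1ip1, an activator of acetyl-CoA carboxylase, fell on the ketogenic diet against chow (-1.63 ± 0.24, adjusted p = 0.000174). High-fat against chow, Nr1h3, which encodes LXR alpha, rose (0.18 ± 0.05) and Pparg fell (-0.76 ± 0.22). The messages of SREBP-1c and ChREBP do not give the amounts of their active proteins.

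**Figure D5:**
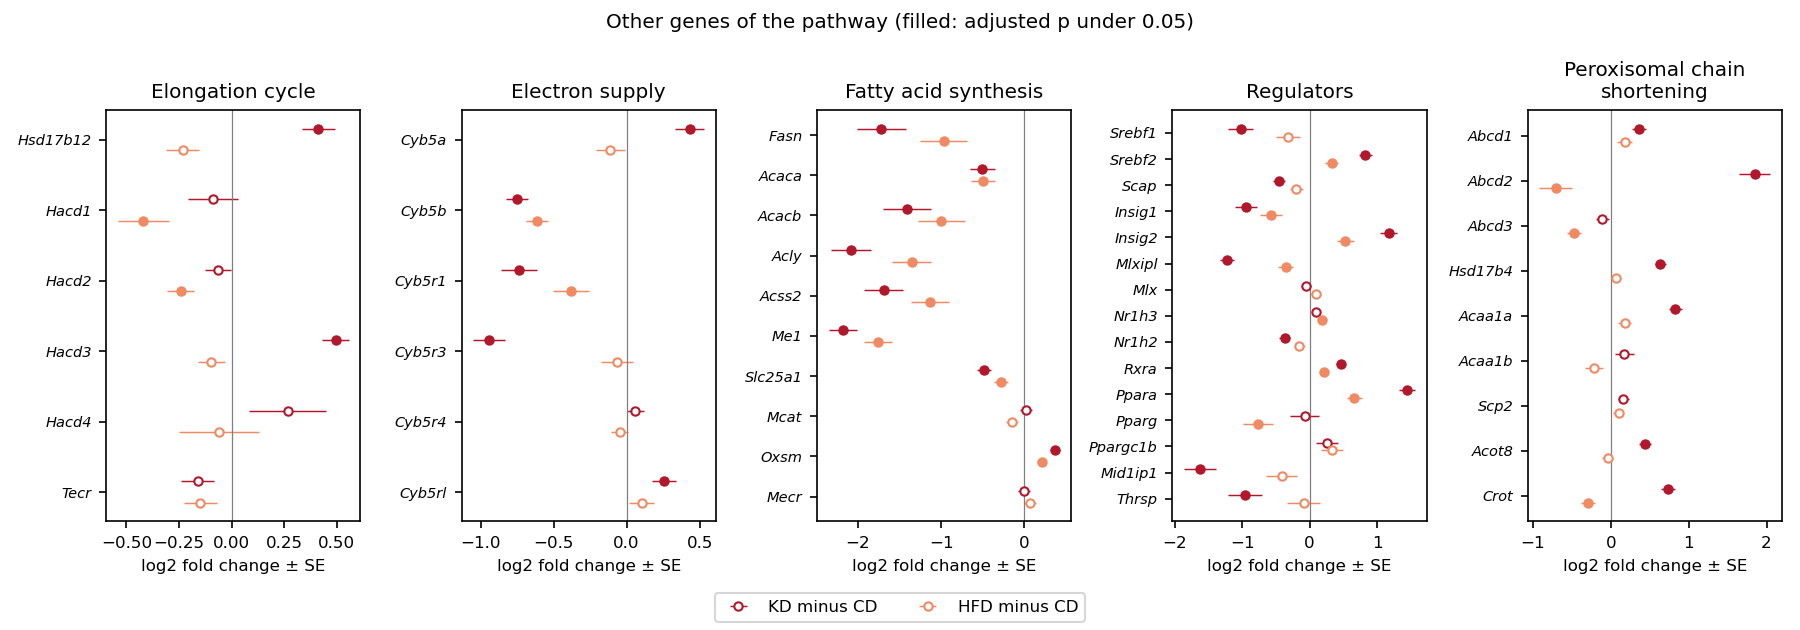
Log2 fold changes (x axis, with a separate scale in each panel) of other genes of the pathway (y axis) for KD minus CD (dark red) and HFD minus CD (orange), with error bars of 1 standard error. Filled points had an adjusted p under 0.05. Of 10 fatty acid synthesis genes 7 fell in each comparison, while 6 of 9 peroxisomal genes rose in KD livers and none did in HFD livers. Of all tested genes, 16.2% were called higher and 14.6% lower in KD livers, and 8.3% and 7.32% in HFD livers.

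Downstream of Elovl2, docosahexaenoic acid is finished by peroxisomal chain shortening. Of 9 genes of that step 6 rose and none fell in ketogenic against chow livers, and 7 rose and none fell in ketogenic against high-fat livers, while high-fat against chow none rose and 3 fell. Of all tested genes, 16.2% were called higher for ketogenic against chow and 13.1% for ketogenic against high-fat. For high-fat against chow 8.3% were called higher and 7.32% lower. Abcd2, a peroxisomal transporter of very long chains, averaged 45.4 ± 7.27 CPM in ketogenic livers, 7.77 ± 2.72 CPM in high-fat livers and 12.6 ± 2.18 CPM in chow livers. Its log2 fold change was 1.85 ± 0.20 for ketogenic against chow (adjusted p = 1.41e-05) and -0.70 ± 0.21 for high-fat against chow (adjusted p = 0.0376). Crot, the carnitine octanoyltransferase, rose on the ketogenic diet (0.74 ± 0.09) and fell on the high-fat diet (-0.29 ± 0.09) against chow. Enzymes of the shortening itself that rose in ketogenic against chow livers were the bifunctional Hsd17b4 (0.63 ± 0.07) and the thiolase Acaa1a (0.83 ± 0.08), as did the thioesterase Acot8 (0.44 ± 0.07). Abcd3, another peroxisomal transporter, fell in high-fat against chow livers (-0.47 ± 0.09).

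Of 13 tested genes that activate polyunsaturated fatty acids or load them into phospholipids, 3 rose and 3 fell in ketogenic against chow livers, and 1 rose and 3 fell in high-fat against chow livers. Of all tested genes, 30.8% and 15.6% were called in these comparisons. Agpat3, an acyltransferase that favours docosahexaenoic acid, rose on the ketogenic diet (0.77 ± 0.06, adjusted p = 5.78e-08) and on the high-fat diet (0.30 ± 0.06, adjusted p = 0.00332) against chow. Acsl4, the synthetase that prefers arachidonic acid, fell on the ketogenic diet (-0.78 ± 0.08, adjusted p = 7.21e-07). Lpcat3, which places arachidonic acid in phospholipids, fell on the ketogenic diet (-0.47 ± 0.10, adjusted p = 0.00112) and on the high-fat diet (-0.52 ± 0.10, adjusted p = 0.00174) against chow. The synthetase Acsl1 (0.62 ± 0.09) and the acyltransferase Lclat1 (0.40 ± 0.07) rose on the ketogenic diet, and Acsl5 fell on the ketogenic (-0.35 ± 0.11) and high-fat (-0.60 ± 0.11) diets. Lpcat2 fell on the high-fat diet (-0.55 ± 0.18), and Acsl6 and Mboat2 had 0 to 11 and 0 to 8 reads. Ketogenic against high-fat 3 rose and 1 fell, with Acsl4 lower (-0.60 ± 0.08), where 26.1% of all tested genes were called.

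The stretches just before the starts of Elovl5 and Elovl6 are printed because these elongases differed in which diets set them apart. RefSeq's promoter table (GRCm38.p6) held entries for 6 of the 10 members, Fads2, Fads3, Elovl1, Elovl2, Elovl5 and Elovl6. In each stretch, on the plus strand and 5′ to 3′, capitals mark matches to any of 7 motifs searched on both strands. Elovl5 is at chr9:77917115-77917363 and Elovl6 at chr3:129532136-129532354.
Elovl5: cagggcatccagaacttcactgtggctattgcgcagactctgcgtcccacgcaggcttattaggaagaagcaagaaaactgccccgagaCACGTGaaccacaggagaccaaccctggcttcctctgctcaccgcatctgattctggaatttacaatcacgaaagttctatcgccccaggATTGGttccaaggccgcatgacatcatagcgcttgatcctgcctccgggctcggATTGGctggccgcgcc
Elovl6: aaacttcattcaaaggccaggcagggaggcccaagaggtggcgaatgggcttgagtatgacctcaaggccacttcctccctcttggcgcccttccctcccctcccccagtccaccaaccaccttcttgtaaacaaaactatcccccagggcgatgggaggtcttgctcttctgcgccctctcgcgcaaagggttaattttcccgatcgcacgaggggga
Elovl5 held an E-box, CACGTG, 161 bases before its RefSeq start and CCAAT boxes on the reverse strand 71 and 17 bases before it. Among 32851 promoters, 6.02% held that E-box and 33.8% a CCAAT box in the 250 bases before the start. The other motifs were the sterol regulatory element TCACNCCAC (1.05% of promoters), the cyclic AMP element TGACGTCA (1.55%), the GC box GGGCGG (32.7%), and repeats of AGGTCA spaced by 1 base (0.0335%) or by 4 (0.0152%). None of the 7 was found in the 250 bases of Elovl6, which says only that these letters are not in that window. GENCODE M21 places the antisense gene Gm35986 across the Elovl6 stretch. The matches are descriptions of the sequence, not of binding.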

How the data were processed

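Total RNA of 15 livers was sequenced, 5 per diet. Per the submitters' processing notes, the tools were Trimmomatic 0.36, kallisto 0.44 and edgeR 3.28, on build GRCm38.p6. Their settings, and whether reads were stranded, are not given in the sources used. Each deposited table gives, per the file headers, an estimated count and a TPM for 106332 transcripts.

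GENCODE M21 joined 105734 of them to 25731 genes, whose estimated counts were added up and rounded. The 598 unmatched transcripts (0.184 to 0.223% of reads) were left out. After filterByExpr (minimum count 10, total 15), edgeR 4.0.16 fitted all 15 libraries with TMM and robust quasi-likelihood (12 residual degrees of freedom, common biological coefficient of variation 0.1306), the diet as the only term. The deposited TPM, which depends on what else a library holds, served for transcript shares and to weight effective lengths. The code was tested on simulated data. The work ran in Python 3.11.15 (pandas 2.3.3, matplotlib 3.10.9) and R 4.3.3 (DESeq2 1.42.0, limma 3.58.1). Fads3 and Scd2, with 38 to 268 reads per library, were the least deeply counted members.

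The members and lists were chosen with earlier results of these data known. All members were named. From each pathway list, the genes named are the up to 6 with the smallest adjusted p under 0.05 in a comparison and those at or near 0. Beside these, Srebf1, Tecr, Degs1, Mcat and Mecr and the uncalled relatives were picked with their values in view. The 3 most alike genes were taken for Scd1, Fads2, Elovl5 and Elovl6. For Elovl6 and for the peroxisomal list, 1 gene each is not reported here. Alternatives were other scalings (DESeq2's size factors, total counts), the DESeq2 test, no filter, 1 CPM in 5 libraries, only the diets compared, an effective length offset and leaving out each library. Leaving out the 3 chow libraries with Adipoq reads was chosen after seeing the data.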

Additional observations from a re-analysis of the deposited data

How the results depend on the processing

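No paired analysis was possible because no library number recurs between diets. Of 690 checks of a member in a comparison, 618 kept direction and side of the threshold, 37 lost the call, 15 gained it and 20 changed sign, all of those uncalled and near 0. The calls of Scd1, Fads2, Elovl1 and Elovl6 for ketogenic against chow, and of Scd1, Elovl1 and Elovl2 for ketogenic against high-fat, and of Elovl1 for high-fat against chow, held in every alternative run. With total-count scaling, genes called lower numbered 1265 for ketogenic against chow and 960 for ketogenic against high-fat, and higher calls made up 68.5% and 70.6% of all calls, against 52.6% and 50.1% with TMM. With the effective length offset, 746 genes were higher in high-fat than in chow livers. In a fit to those diets alone, 2 members were. Without CD 16, CD 17 and CD 18, 1 member was higher and 3 lower for ketogenic against chow, and 0 higher and 1 lower for high-fat against chow. Of 14481 genes tested there, 1642 were higher and 1386 lower for ketogenic against chow. For high-fat against chow 657 were higher and 612 lower, with 2 chow libraries in the fit.

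Leaving out each library in turn, ketogenic against chow gave 1950 to 2329 genes higher, 1652 to 2112 lower, 2 to 3 members higher and 4 to 6 lower. High-fat against chow gave 802 to 1441 genes higher, 681 to 1313 lower, 0 to 2 members higher and 3 to 6 lower. Ketogenic against high-fat gave 1479 to 1982 genes higher, 1381 to 1961 lower, 1 to 3 members higher and 2 to 3 lower. Sign changes on the log2 scale were as follows. Elovl2, high-fat against chow, was -0.0027 with DESeq2's size factors, -0.0029 with the DESeq2 test, -0.0034 at 1 CPM in 5 libraries, -6.45e-05 with only those diets, -0.070 to 0.094 over leave-outs and -0.038 without CD 16, CD 17 and CD 18. Elovl3 in that comparison was -0.11 to 0.066 over leave-outs and 0.044 without those 3. Fads3, ketogenic against high-fat, was 0.016 with total-count scaling, 0.11 with the effective length offset and -0.13 to 0.080 over leave-outs. Over leave-outs Fads1 there was -0.052 (without KD 4) to 0.16, and Elovl5, ketogenic against chow, -0.0054 (without CD 19) to 0.21. The causes were not tested.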
